A study of Mus musculus with 12 samples.

Results

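The genes described are 9 homeodomain transcription factors that mark developing sensory and motor neurons and the neurons that connect them: Isl1, Isl2, Pou4f1, Lhx1, Lhx3, Lhx9, Phox2a, Mnx1 and Tlx3. They were chosen by name with earlier results of these data known, so counts among them set beside all genes are descriptions. Each was looked up among the 39429 non-control probes of a mouse expression array through the transcript accession of the probe, which names 19747 genes. A probe was found for 8 of the 9 (10 probes in all), and 7 of the 8 were bright enough to be tested. Mnx1, which fixes motor neuron identity, had no probe tied to it in this way and is not analysed here.

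Homeodomain factors are read as a code in the neural tube and its ganglia: the combination that a newly born neuron switches on sets whether it becomes a sensory neuron, a motor neuron or a given class of interneuron. Isl1, Isl2, Lhx1, Lhx3 and Lhx9 belong to the LIM-homeodomain class, whose LIM domains bind the adaptor Ldb1 and through it each other. Pou4f1 (also called Brn3a) is a POU-domain factor, and Phox2a and Tlx3 carry homeodomains of other classes. Chd7 encodes a chromatin remodeller that is mutated in CHARGE syndrome, in which cranial nerves, heart and inner ear are among the affected parts.

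The study asked which genes change without functional Chd7 when neural crest cells migrate. RNA came from whole female embryos at embryonic day 9.5 that had been freed of their yolk sacs, and it was measured on 12 single-colour Agilent arrays. There were 4 arrays each of Chd7Whi/Whi embryos, which carry the whirligig allele of Chd7 on both copies of the gene, of Chd7Whi/+ embryos, which carry it on a single copy, and of wild-type embryos. All came from matings of Chd7Whi/+ parents on a mixed C3HeB/FeJ background, and the allele is present in every tissue, so the measurements are not specific to neurons. Samples of the same genotype are biological replicates by their labels. In whole-embryo RNA, fewer cells of a type and less RNA per cell cannot be told apart.

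On each array 69.9% to 76.4% of spots were well above background by the scanner software's call, and no spot was saturated. The 12 arrays lay on 3 slides, each holding all 3 genotypes, but position 1 of the slide held only wild-type arrays (replicates 1, 2 and 4). The median coefficient of variation of repeated spots was 12.6%, 10.2% and 9.58% on these arrays, against 4.41% to 14.7% on the others. Chd7 itself had no probe tied to it, so its own level is not analysed here and the genotype labels could not be checked by it. Chd7Whi/+ replicate 1 stood apart in its heart markers, whose summed signal was 8.75, against 48.7 to 64.4 on the other Chd7Whi/+ arrays, in units of each array's own 75th percentile of signal.

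The windows shown here are the 250 bases before 1 transcript start each of Isl1, Pou4f1 and Lhx9, the 3 members that were lower in Chd7Whi/Whi embryos, and of Isl2, the closest relative of Isl1, which did not pass the test. They are RefSeq sequence of GRCm38.p6, written 5′ to 3′ on the strand of the gene. The Isl1 window directly precedes the gene, whereas those of Lhx9 and Isl2 lie inside the annotated span of the gene and that of Pou4f1 in part, so further starts upstream of them are not shown. Isl1 has chr13:116309689-116309938 on the minus strand, Pou4f1 has chr14:104468000-104468249 on the minus strand, Lhx9 has chr1:138842445-138842694 on the minus strand and Isl2 has chr9:55540899-55541148 on the plus strand. Capitals mark CANNTG, the E-box letters that basic helix-loop-helix factors such as the neurogenins bind.
Isl1: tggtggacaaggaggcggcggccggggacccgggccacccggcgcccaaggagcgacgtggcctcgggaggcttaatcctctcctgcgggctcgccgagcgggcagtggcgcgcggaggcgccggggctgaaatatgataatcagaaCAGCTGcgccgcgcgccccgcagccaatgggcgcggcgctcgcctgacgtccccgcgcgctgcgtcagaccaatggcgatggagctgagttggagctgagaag
Pou4f1: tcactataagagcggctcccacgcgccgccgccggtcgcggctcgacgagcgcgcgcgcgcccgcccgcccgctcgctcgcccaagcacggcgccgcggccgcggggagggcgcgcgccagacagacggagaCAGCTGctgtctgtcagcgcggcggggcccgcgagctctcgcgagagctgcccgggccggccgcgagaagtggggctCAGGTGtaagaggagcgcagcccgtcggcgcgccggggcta
Lhx9: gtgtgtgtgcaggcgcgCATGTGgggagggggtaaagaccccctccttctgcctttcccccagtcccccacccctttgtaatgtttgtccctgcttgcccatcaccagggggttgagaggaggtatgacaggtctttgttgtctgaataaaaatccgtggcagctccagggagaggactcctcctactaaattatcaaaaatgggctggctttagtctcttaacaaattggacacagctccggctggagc
Isl2: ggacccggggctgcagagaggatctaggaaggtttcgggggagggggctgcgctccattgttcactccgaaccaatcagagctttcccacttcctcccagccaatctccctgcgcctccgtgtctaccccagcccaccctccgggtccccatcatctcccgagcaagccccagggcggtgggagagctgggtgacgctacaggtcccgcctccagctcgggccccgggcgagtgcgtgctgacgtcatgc

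The E-box letters, which read the same on both strands, occur 1 time before Isl1, 2 times before Pou4f1, 1 time before Lhx9 and 0 times before Isl2. Of all 32851 RefSeq windows of this length, 66.2% hold them at least once and 31.8% at least 2 times, so a match is common. TAAT, the core that homeodomains bind, was searched on both strands and occurs 2 times before Isl1, 2 times before Lhx9, 0 times before Pou4f1 and 0 times before Isl2, and 54.9% of all windows hold it. The windows of Isl1 and Pou4f1 are rich in GC (71.2% and 78%), with 33 and 47 CG pairs, whereas that of Lhx9 has 53.6% GC and 4 CG pairs, near the medians of all windows (52.4% and 6). No motif searched is shared by the 3 lower members and absent from all others. The second window of Lhx3 also holds an E-box, and that of Mnx1 holds 2.

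In Chd7Whi/Whi embryos, Isl1, Pou4f1 and Lhx9 were lower than in wild type, at 0.576, 0.555 and 0.512 of the wild-type signal. These are 3 of the 7 members tested, where 0.864% of all 22568 genes tested were called lower and 1.35% were called in either direction. With normexp in place of the scanner's background correction the called genes were 9 higher and 82 lower, against 110 higher and 195 lower. No member was called higher, as 0.487% of all genes were, and Isl2, Phox2a, Lhx3 and Lhx1 did not pass the test. The difference was below 0 for 6 of the 7 members, against 46.5% of all genes, and its median over the members was -0.38, against 0.02 over all genes. Because the members were chosen with earlier results of these data known, these shares are descriptions and not tests. All values are the log2 of the background-corrected signal minus the log2 of the array's 75th percentile, so 0 is the brightness at that percentile. A call is a Benjamini-Hochberg adjusted p under 0.05 in limma over all genes tested.

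Isl1 is needed for the survival and identity of motor and sensory neurons, and outside the nervous system it marks the second heart field. Its probe (A_52_P337246) had log2 signals of -1.67, -1.79, -1.77 and -2.33 in Chd7Whi/Whi embryos, -1.21, -1.35, -1.49 and -1.75 in Chd7Whi/+ embryos and -1.01, -1.09, -1.25 and -1.05 in wild type. Every Chd7Whi/Whi array lay below every wild-type array, as was the case for 8.22% of all genes, and Chd7Whi/Whi replicate 4 was the lowest of the 12. Chd7Whi/+ replicate 4, at -1.75, lay inside the Chd7Whi/Whi range, and the other Chd7Whi/+ arrays lay between the other genotypes or within the wild-type range. The group means were -1.89 ± 0.30 in Chd7Whi/Whi, -1.45 ± 0.23 in Chd7Whi/+ and -1.10 ± 0.10 in wild type (SD, n = 4 each). Chd7Whi/Whi minus wild type was -0.80 ± 0.15 (standard error of the limma fit, 95% interval -1.13 to -0.46, adjusted p = 0.0307), which ranked 193 of all genes by p.

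The Isl1 probe was printed 10 times on the array, which gives a technical spread for this gene alone. Between 8 and 10 of its spots could be used per array, and their SD was 0.037 to 0.049 on the Chd7Whi/Whi arrays, 0.024 to 0.106 on the Chd7Whi/+ arrays and 0.028 to 0.103 on the wild-type arrays. The highest spot of any Chd7Whi/Whi array was -1.61, below the lowest spot of any wild-type array, -1.30. The spots measure the technical spread within an array, not the spread between embryos.

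**Figure D1:**
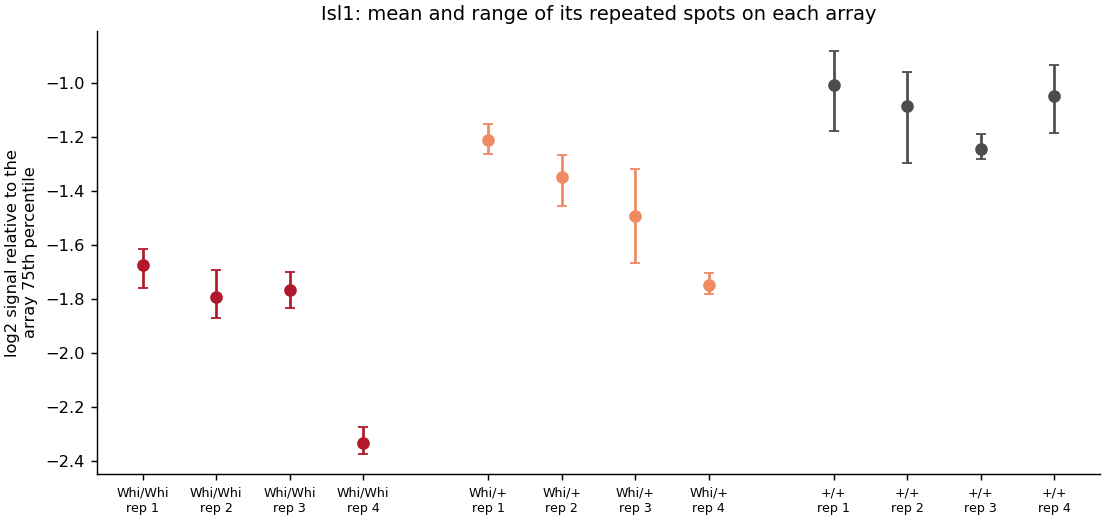
Each point is the mean log2 signal of the repeated Isl1 spots on one array (vertical axis, log2 relative to the array's 75th percentile), and each bar runs from the lowest to the highest spot. The 4 Chd7Whi/Whi arrays at the left reach -1.61 at most, and the 4 wild-type arrays at the right go no lower than -1.30.

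Pou4f1 drives the differentiation of sensory neurons in the trigeminal and dorsal root ganglia. Its probe (A_55_P2367250) gave -3.24, -2.83, -3.06 and -3.20 in Chd7Whi/Whi embryos, -2.52, -2.78, -2.97 and -2.63 in Chd7Whi/+ embryos and -1.97, -2.56, -2.14 and -2.25 in wild type. Every Chd7Whi/Whi array lay below every wild-type array, as for 8.22% of all genes. Chd7Whi/+ arrays overlapped both, with replicate 3 inside the Chd7Whi/Whi range and replicate 1 inside the wild-type range. Means were -3.08 ± 0.19 in Chd7Whi/Whi, -2.72 ± 0.20 in Chd7Whi/+ and -2.23 ± 0.25 in wild type (SD, n = 4 each). Chd7Whi/Whi minus wild type was -0.85 ± 0.15 (95% interval -1.17 to -0.53, limma adjusted p = 0.0172), rank 124 by p and the smallest adjusted p among the members.

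Lhx9 marks dorsal commissural interneurons of the spinal cord and is also used in the limb bud and the gonad. Of its 3 probes only A_55_P2111264 was above background on enough arrays to be tested. That probe was itself dim, at percentile 6.85 of the mean signals of the genes tested. It gave -6.39, -6.18, -6.16 and -5.95 in Chd7Whi/Whi embryos, -5.58, -5.52, -5.94 and -5.90 in Chd7Whi/+ embryos and -4.60, -5.34, -5.30 and -5.58 in wild type. The Chd7Whi/Whi arrays lay below all others, by a narrow margin against Chd7Whi/+, and wild-type replicate 1 was the highest. Of all genes, 8.22% were lower without overlap in Chd7Whi/Whi against wild type and 1.65% against Chd7Whi/+. On the Chd7Whi/Whi arrays the lowest signals of any probe well above background were -7.20 to -6.58. Means were -6.17 ± 0.18 in Chd7Whi/Whi, -5.74 ± 0.22 in Chd7Whi/+ and -5.20 ± 0.42 in wild type (SD, n = 4 each). Chd7Whi/Whi minus wild type was -0.97 ± 0.19 (95% interval -1.39 to -0.54, limma adjusted p = 0.0351), rank 211 by p. With normexp background correction it was -0.58 (adjusted p = 0.459), and 1 of the 7 members, Pou4f1, was then called.

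The other 2 probes of Lhx9 were too dim for a test. Probe A_55_P2111267 was well above background on 0 of 4 Chd7Whi/Whi arrays, 0 of 4 Chd7Whi/+ arrays and 2 of 4 wild-type arrays, with ranges of -9.00 to -8.18, -8.06 to -7.30 and -7.91 to -4.47 in that order. Probe A_55_P2117853 was well above background on 0, 0 and 1 array of 4, with ranges of -9.32 to -7.87 in Chd7Whi/Whi, -8.23 to -7.22 in Chd7Whi/+ and -7.66 to -6.33 in wild type. Values this far down have no order on arrays where the probe was not well above background, so the Lhx9 difference rests on 1 probe.

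Each of the 3 calls ended on leaving out any 1 of several arrays. Over all genes, the fits without 1 array called 112 to 447 genes, against 305 with all arrays. Leaving out 1 array ended the Isl1 call without Chd7Whi/Whi replicates 2 and 3 (adjusted p = 0.0727 and 0.0623) or wild-type replicates 1, 2 and 4 (0.0958, 0.0703 and 0.101). It ended the Pou4f1 call without Chd7Whi/Whi replicates 1 and 3 (0.0569 and 0.0520) or wild-type replicates 1 and 4 (0.0596 and 0.0590). It ended the Lhx9 call without Chd7Whi/Whi replicates 1, 2 and 3 (0.0960, 0.1005 and 0.0856) or wild-type replicates 1, 2 and 3 (0.0522, 0.0598 and 0.0597), and the differences themselves stayed between -0.87 and -0.65 for Isl1, -0.96 and -0.76 for Pou4f1 and -1.09 and -0.76 for Lhx9 (all in limma).

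Slide and position were set beside these values. Within the 3 slides, Chd7Whi/Whi minus wild type was -0.67, -0.63 and -1.004 for Isl1, -1.26, -0.48 and -0.88 for Pou4f1 and -1.79, -0.86 and -0.48 for Lhx9, so each was below 0 on every slide. Position 3 was the only one with both genotypes (2 Chd7Whi/Whi arrays and 1 wild-type array), and there the differences were -0.47 for Isl1, -1.01 for Pou4f1 and -0.97 for Lhx9. With position as a block none of the 3 was called in limma (adjusted p = 0.9998 for Isl1, 0.460 for Pou4f1 and 0.9998 for Lhx9), a fit in which 20 genes of all passed, against 305 without it.

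**Figure D2:**
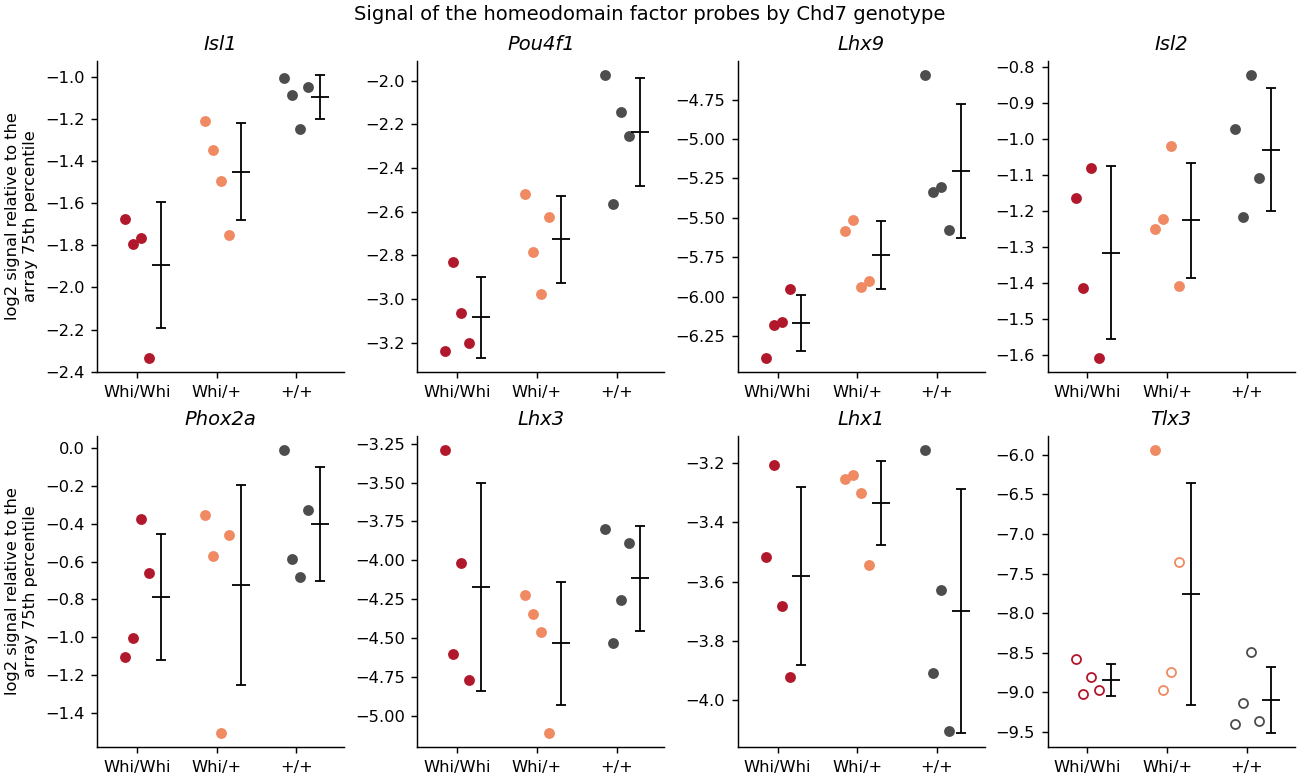
Each panel shows the log2 signal of one probe (vertical axis, relative to the array's 75th percentile) on the Chd7Whi/Whi, Chd7Whi/+ and wild-type arrays from left to right, with the mean and SD of 4 arrays beside the points, and open points mark arrays where the probe was not well above background. The Chd7Whi/Whi points of Isl1, Pou4f1 and Lhx9 lie below all wild-type points, the panels have different vertical scales, and Tlx3 is above background on 1 array.

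The remaining motor neuron factors did not pass the test. Isl2, a relative of Isl1 expressed in newly born motor neurons, had log2 signals of -1.16, -1.41, -1.08 and -1.61 in Chd7Whi/Whi embryos, -1.25, -1.22, -1.02 and -1.41 in Chd7Whi/+ embryos and -0.97, -1.22, -0.82 and -1.11 in wild type. The genotypes overlapped, although 2 Chd7Whi/Whi arrays were below every wild-type array. The difference of Chd7Whi/Whi from wild type was -0.29 ± 0.14 (limma adjusted p = 0.316) with a 95% interval of -0.58 to 0.01, which overlaps that of Isl1, and whether the 2 genes differ was not tested.

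Lhx3, which forms a complex with Isl1 in motor neurons, specifies V2 interneurons on its own and is required in the pituitary, spread widely within genotypes. It gave -3.29, -4.60, -4.02 and -4.77 in Chd7Whi/Whi embryos, -4.22, -4.35, -4.46 and -5.11 in Chd7Whi/+ embryos and -3.80, -4.53, -4.25 and -3.89 in wild type. The Chd7Whi/Whi arrays included both the highest value of all (replicate 1) and 2 below every wild-type array (replicates 2 and 4). The difference was -0.05 ± 0.31 (95% interval -0.73 to 0.62, limma adjusted p = 0.950), an interval that includes the -0.29 of Isl2.

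Phox2a specifies cranial motor neurons of the eye muscles and noradrenergic neurons. Its log2 signals were -1.11, -1.004, -0.38 and -0.66 in Chd7Whi/Whi embryos, -0.36, -0.57, -1.504 and -0.46 in Chd7Whi/+ embryos and -0.01, -0.59, -0.68 and -0.33 in wild type. Chd7Whi/Whi replicates 1 and 2 were below all wild-type arrays and the other 2 were among them. The difference was -0.38 ± 0.26 (95% interval -0.94 to 0.17, limma adjusted p = 0.465).

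Lhx1 marks motor neurons that project to the dorsal limb and several interneuron classes, and outside the neural tube it is required in the intermediate mesoderm. It gave -3.52, -3.21, -3.68 and -3.92 in Chd7Whi/Whi embryos, -3.25, -3.24, -3.30 and -3.55 in Chd7Whi/+ embryos and -3.16, -3.91, -3.63 and -4.10 in wild type. Both the highest and the lowest value of the 12 were wild type. The difference was 0.12 ± 0.20 (95% interval -0.32 to 0.55, limma adjusted p = 0.796), the only one of the 7 above 0.

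Tlx3, which sets an excitatory fate in dorsal horn neurons and is also expressed in sensory ganglia, was well above background on 1 of 12 arrays, Chd7Whi/+ replicate 1 (-5.94). On the other arrays its signal lay between -9.03 and -8.58 in Chd7Whi/Whi, -8.97 and -7.35 in Chd7Whi/+ and -9.40 and -8.49 in wild type, not well above background on any of them. It was not tested, and a decrease from wild type could not have been detected at this brightness.

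One copy of the whirligig allele gave no call among the members. In Chd7Whi/+ against wild type, 0 of the 7 members passed in limma, where 0.00886% of all genes were called (2 genes, both lower), and 3 had an unadjusted p under 0.05, as did 3483 of the 22568 genes. These were Pou4f1 with -0.49 ± 0.15 (95% interval -0.81 to -0.17, adjusted p = 0.237), Lhx9 with -0.53 ± 0.19 (-0.95 to -0.11, adjusted p = 0.262) and Isl1 with -0.35 ± 0.15 (-0.69 to -0.02, adjusted p = 0.311). Isl2 had -0.19, Phox2a -0.32, Lhx3 -0.42 and Lhx1 0.36, with adjusted p between 0.383 and 0.527. Arrays of the 2 genotypes overlapped for each of the 7, whereas 2.18% of all genes were lower without overlap. The difference was below 0 for 6 of the 7, against 43.1% of all genes. No Chd7Whi/+ array shared a slide position with a wild-type array, so position and genotype cannot be told apart here, and with position as a block 3 of the 7 were below 0, with 0.14 for Isl1, 0.75 for Lhx3 and 0.052 for Phox2a. Without Chd7Whi/+ replicate 1, whose heart markers stood apart, the differences were -0.56 for Pou4f1, -0.58 for Lhx9 and -0.43 for Isl1. Leaving out 1 other array moved Lhx9 to -0.33 (without wild-type replicate 1), Phox2a to -0.19 (without wild-type replicate 1) or -0.059 (without Chd7Whi/+ replicate 3), Lhx3 to -0.23 (without Chd7Whi/+ replicate 4), Isl2 to -0.13 (without wild-type replicate 3) and Lhx1 to 0.23 (without wild-type replicate 4). For Isl1 and Pou4f1 the weakest values were -0.25 (without Chd7Whi/+ replicate 4) and -0.40 (without wild-type replicate 1).

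Chd7Whi/Whi against Chd7Whi/+ gave no call among the members either, where 0.0133% of all genes were called (3 genes, all lower). The difference was -0.44 ± 0.15 for Isl1 (limma adjusted p = 0.708), -0.36 ± 0.15 for Pou4f1 (0.796) and -0.43 ± 0.19 for Lhx9 (0.826), each with an unadjusted p under 0.05, as had 1353 of the 22568 genes. Lhx9 was the 1 member whose arrays did not overlap, being lower in Chd7Whi/Whi as were 1.65% of all genes. Isl2 had -0.09, Phox2a -0.06, Lhx1 -0.25 and Lhx3 0.36, so 6 of the 7 were below 0, against 59.1% of all genes.

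The order of the mean signals was the same, lowest in Chd7Whi/Whi, intermediate in Chd7Whi/+ and highest in wild type, for Isl1, Pou4f1, Lhx9, Isl2 and Phox2a, that is for 5 of the 7 members and 21.8% of all genes. Neighbours in that order did not differ past the threshold for any of them. No Chd7Whi/+ array shared a slide position with a wild-type array, so the order cannot be told apart from position. With position as a block, Chd7Whi/+ lay above wild type for Isl1 (0.14) and Phox2a (0.052). It stayed below wild type for Pou4f1, Lhx9 and Isl2. For Isl1, Pou4f1 and Lhx9 the Chd7Whi/+ mean lay close to the midpoint of the other 2 genotypes, at 0.04 ± 0.13, -0.07 ± 0.13 and -0.05 ± 0.17 from it. None of these departed from the midpoint in limma (adjusted p = 0.953, 0.917 and 0.961), and 0 of all genes did, with 1763 of 22568 at an unadjusted p under 0.05. With position as a block, Isl1 lay 0.38 above the midpoint, and no member was called. Lhx1 and Lhx3 had Chd7Whi/+ means outside the range of the other genotypes, 0.31 ± 0.17 above and -0.39 ± 0.27 below the midpoint (adjusted p = 0.693 and 0.737). These comparisons share arrays with each other and are not independent.

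**Figure D3:**
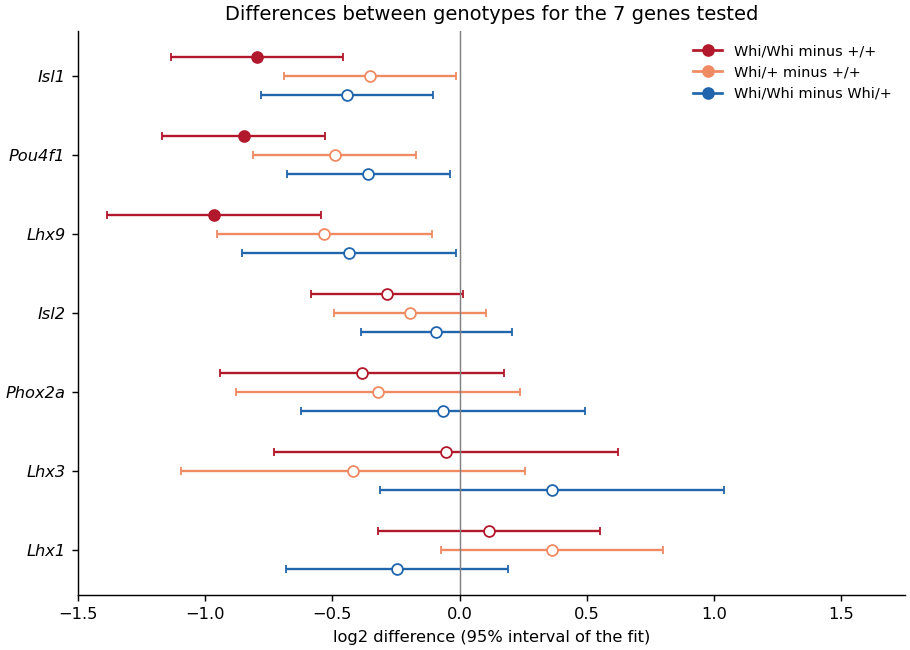
Each row is one of the 7 genes tested, with the log2 difference (horizontal axis) of Chd7Whi/Whi minus wild type, Chd7Whi/+ minus wild type and Chd7Whi/Whi minus Chd7Whi/+ from top to bottom and its 95% interval from the limma fit, and filled points have an adjusted p under 0.05. Only Chd7Whi/Whi minus wild type of Isl1 (-0.80), Pou4f1 (-0.85) and Lhx9 (-0.97) is filled.

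Genes upstream of and around the members were read from lists of the same pathway. Among 18 proneural and progenitor factors tested, 3 were called lower in Chd7Whi/Whi than in wild type and 0 were called higher. The called genes include Neurod4, which was not well above background on any Chd7Whi/Whi array. In this list 16 genes had a difference below 0, with a median of -0.30. Over all genes, 0.864% were called lower, 0.487% higher and 46.5% had a difference below 0, with a median of 0.02, against which this and the following lists are to be read. The lists too were chosen with earlier results of these data known, so their counts are descriptions. Olig3, which patterns the dorsal progenitors that give rise to Lhx9-expressing interneurons, averaged -2.07 in Chd7Whi/Whi and -0.30 in wild type and was lower by -1.77 ± 0.25 (limma adjusted p = 0.00531). Neurog2, a neurogenin that starts sensory and motor neurogenesis, averaged -2.77 in Chd7Whi/Whi and -1.75 in wild type, a difference of -1.02 ± 0.22 (adjusted p = 0.0493) although arrays of the genotypes overlapped. Neurod4, a later proneural factor, was well above background on 0 of 4 Chd7Whi/Whi and 4 of 4 wild-type arrays and was at least 2.20-fold lower in Chd7Whi/Whi. It passed the brightness filter without its Chd7Whi/Whi arrays. Its limma call (adjusted p = 0.0466) rests on Chd7Whi/Whi signals below background, with a mean of -8.49, and is not counted as support. The bound does not hold with normexp, where the log2 difference was -0.78 (adjusted p = 0.332), and slide as a block also ended the call (0.0611). Olig3 stayed called without any 1 array, whereas Neurog2 lost its call without any of 9 arrays and Neurod4 without any of 8.

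Partners and relatives of the members were mostly not called. Of 9 LIM cofactors and competitors tested, Lmo1, a LIM-only protein that competes for Ldb1, was higher by 1.08 ± 0.21 in Chd7Whi/Whi (means -0.11 and -1.18 in wild type, limma adjusted p = 0.0346), a call that ended without any of 8 arrays. Ssbp2, an Ldb1 stabiliser, had 0.26 (0.323), and the list's median was 0.05. None of 12 related homeodomain factors passed, with a median of -0.10. Among them the 2 with the smallest p were Lhx4, with -1.60 ± 0.45 (0.119), well above background on 1 of 4 Chd7Whi/Whi and 4 of 4 wild-type arrays, and Tlx2, with -1.65 ± 0.50 (0.151).

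Genes that act in finished neurons gave few calls. Of 11 sensory neuron genes tested, Ntrk3, the neurotrophin-3 receptor, was lower by -0.57 ± 0.12 (limma adjusted p = 0.0452), a call that ended without any of 9 arrays, while 3 other Ntrk3 probes had -0.19, -0.19 and 0.10. Runx1, which acts in nociceptive neurons, had 0.35 (0.197). Of 9 motor neuron genes 0 passed, with a median of 0.19, and the 2 with the smallest p were Slit3 with 0.44 (0.0727) and Gfra1 with 0.55 (0.172). Of 12 spinal interneuron factors, Foxd3, which marks V1 interneurons and also the neural crest, was higher by 1.33 ± 0.24 (0.0211) and lost its call without any of 5 arrays, and Pax8 had 0.78 (0.149). With array position as a block, none of the genes called here or among the other lists passed, from Olig3 to Foxd3 and Fgf10.

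General neuronal genes lay on the same side of 0 as the members. None of 21 tested was called in Chd7Whi/Whi, but 19 had a difference below 0, as had 46.5% of all genes. Their median was -0.43, against -0.38 for the members and 0.02 for all genes. Their summed signal was 18.7 to 22.8 in Chd7Whi/Whi, 19.7 to 24.6 in Chd7Whi/+ and 22.3 to 27.4 in wild type, in units of the array's 75th percentile. Insm1, a zinc-finger factor of newborn neurons, had -1.67 ± 0.42 (limma adjusted p = 0.0848), and Nefm, a neurofilament, -0.75 ± 0.21 (0.120). The other 2 genes of that list, Myt1 and St18, were not tested. The part of the general neuronal signal in the decrease of the members was not tested.

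**Figure D4:**
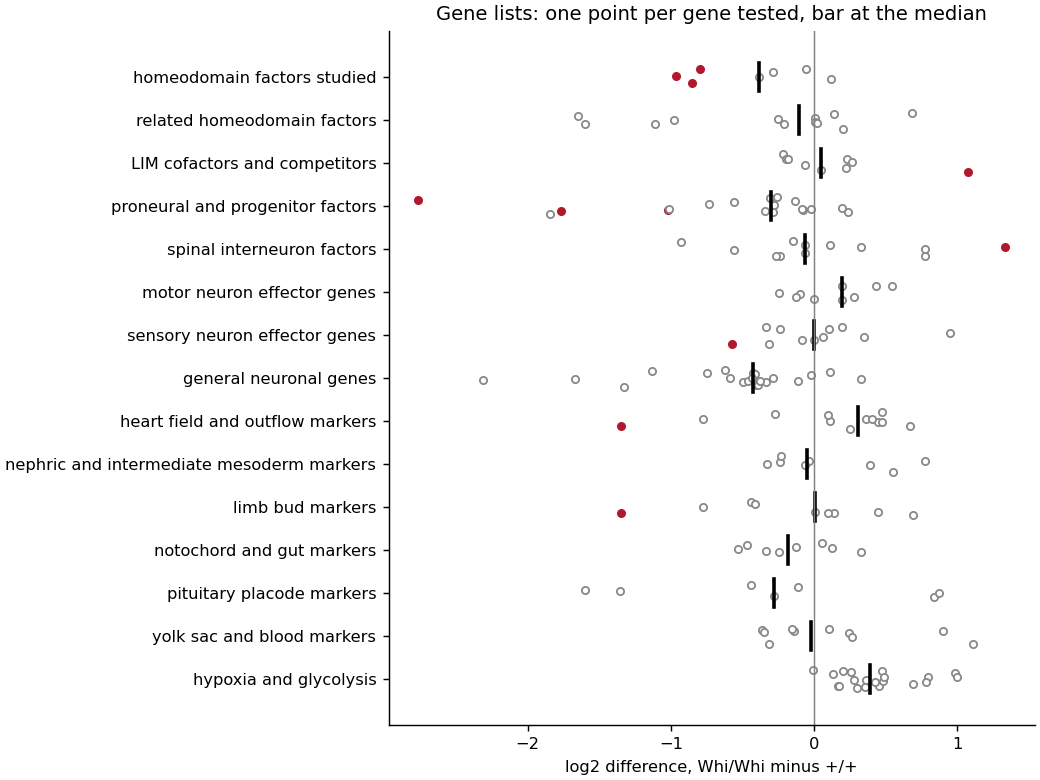
Each point is one gene tested, placed by its log2 difference of Chd7Whi/Whi minus wild type (horizontal axis), rows are gene lists, black bars are list medians and filled points have an adjusted p under 0.05. The bar of the homeodomain factors is at -0.38, close to that of the general neuronal genes at -0.43, and the far left point is Neurod4, whose position is a measured value below background in Chd7Whi/Whi.

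Several members also mark tissues outside the nervous system, and lists for these were read beside them. For Isl1, the 12 heart field and outflow genes had a median of 0.31 with 9 above 0, and their summed signal was 46.3 to 77.3 in Chd7Whi/Whi, 8.75 to 64.4 in Chd7Whi/+ and 39.01 to 62.8 in wild type. One of them was lower, Fgf10, a growth factor of the second heart field, limb and pharynx, by -1.35 ± 0.15 (limma adjusted p = 0.00128), and Hand2 had -0.78 (0.109). Fgf10 stayed called without any 1 array.

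For Lhx9, the limb bud list had a median of 0.00 over 9 genes with Fgf10 as its only call, and Tbx15 had 0.69 (0.0854). Its summed signal was 8.29 to 9.61 in Chd7Whi/Whi, 7.42 to 11.7 in Chd7Whi/+ and 9.53 to 12.3 in wild type. For Lhx1, 0 of 8 nephric genes were called (median -0.05), with Pax8 at 0.78 and Wnt9b at 0.39 (limma adjusted p = 0.149 and 0.211). For Lhx3, 0 of 7 pituitary genes were called (median -0.28), with Lhx4 at -1.60 and Six3 at 0.87 (0.119 and 0.142). For Isl1 and Lhx1, 0 of 8 notochord and gut genes were called (median -0.18), with Sox17 at -0.53 and Foxa1 at -0.33 (0.179 and 0.411).

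Other tissue and stress lists gave no calls. Of 20 hypoxia and glycolysis genes 19 had a difference above 0, with a median of 0.39, and Pdk1 and Pfkl had 0.79 and 0.78 (limma adjusted p = 0.0981 and 0.106). Their summed signal was 832 to 1004 in Chd7Whi/Whi, 741 to 1276 in Chd7Whi/+ and 703 to 818 in wild type, so the Chd7Whi/Whi and wild-type arrays did not overlap. Nor did they for the LIM cofactors and competitors, higher at 22.8 to 25.2 against 21.4 to 22.3 in wild type. The members did not overlap either, lower at 1.39 to 1.81 against 1.87 to 2.48, and the other lists overlapped. The part of the hypoxia and glycolysis difference in the members' values was not tested. Of 10 yolk sac and blood genes 0 were called, with a median of -0.02, and Ttr and Hbb-bh1 had 1.11 and -0.31 (0.564 and 0.703).

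The genes whose pattern over the 12 arrays was most like that of the members were named by their Pearson correlation with the mean of the 7 members' standardised signals, among 15015 genes with a symbol. The 5 highest were Pax9 (r = 0.92), Kalrn (0.91), Scarf2 (0.90), Sub1 (0.89) and Hars2 (0.89), none of them called in Chd7Whi/Whi against wild type (limma adjusted p between 0.0773 and 0.377). With each genotype's mean subtracted, they were Pigt (0.94), Skint1 (0.94), Mapt (0.93), Olfr39 (0.92) and Tbkbp1 (0.92). The standardised mean itself was highest on wild-type replicate 1 (1.42 SD) and lowest on Chd7Whi/Whi replicate 4 (-1.16 SD). All points share the scaling of their array.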

How the data were processed

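The scanner software was Agilent Feature Extraction 10.7.3.1, per the file headers. The submitters' processing notes name limma as well. The deposited processed intensity of each spot is corrected for background and is not scaled between arrays, per the file headers. From it, log2 of the deposited intensity minus log2 of the array's 75th percentile was computed, without 1377 control spots and 171 to 386 outlier spots per array. Spots of a probe were averaged, 26049 of 39429 probes were named through RefSeq accessions (GRCm38.p6 table), and each gene's brightest probe was used. A gene was tested if some genotype had it well above background on all 4 of its arrays (22568 genes). One model with a mean per genotype was fitted to the 12 arrays with limma 3.58.1 in R 4.3.3 and tested on simulated data. Replicates are numbered in accession order. The number of arrays limits the precision. A bound ("at least") sets the dim group at the higher of its own signal and the lowest signal well above background on each array. Summed signals add linear scaled signals over the tested genes of a list.

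The members and lists were chosen with earlier results of these data known. From each list the text names every called gene and the 2 genes with the smallest p, and 5 genes are named for each likeness measure. The alternatives were other background correction, scaling, dim-probe filters, probe rules, blocks (slide, position, title number), variance models, weights for arrays, and fits that each omit 1 array. Normexp was run on the median spot signal with an offset of 50. The numbers in the sample titles are not explained by the labels. Residuals of samples of different genotype that share a number correlated above 0.1 in 4 of 11 pairs (median 0.02). Those with different numbers did so in 9 of 37 pairs (median 0.02). The main fit did not pair samples by these numbers, and this check cannot exclude that they group the embryos. Figures were drawn with matplotlib 3.10.9.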

Additional observations from a re-analysis of the deposited data

Results flagged for a closer look

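Among 72 groups of 4 arrays checked, 6 held an array whose gap to the nearest of the others exceeded Dixon's 95% critical value of 0.829 of the range, and chance gives about 1 in 20. The dim Lhx9 probe A_55_P2111267 was lowest on Chd7Whi/+ replicate 1, at -8.06 on the log2 scale, where it was not well above background. The other 5 are summed signals of gene lists: limb bud markers were highest on Chd7Whi/Whi replicate 1 (9.61), spinal interneuron factors were lowest on Chd7Whi/Whi replicate 4 (2.51), notochord and gut markers were highest on Chd7Whi/+ replicate 1 (8.03), related homeodomain factors were lowest on Chd7Whi/+ replicate 4 (7.63) and motor neuron genes were lowest on wild-type replicate 2 (6.59). Chd7Whi/+ replicate 1 thus appears in 2 of the 6. It is also the array with the low heart markers, although their summed signal did not exceed the critical value and is not among the 6. The untested Tlx3 probe was well above background on that same array, at a log2 signal of -5.94, against -8.49 for the highest wild-type array.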

How the results depend on the processing

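Of 26 alternatives, Pou4f1 stayed called lower in Chd7Whi/Whi against wild type in 20, Isl1 in 17 and Lhx9 in 14, and none of the 3 changed direction. The deposited series values equal those of the scanner files, so that alternative could not differ. Fits without a Chd7Whi/+ array, or with every probe on its own, left the difference itself unchanged. These counts are therefore not independent checks. Beside the left-out arrays and the position block, Isl1 lost its call with normexp (-0.74, adjusted p = 0.0545 in limma) and without the dim-probe filter (0.0635). Lhx9 lost it with normexp (-0.58, 0.459), without the filter (0.0714), with only the genotypes compared (0.0545) and with trend and robust variance (0.0548). With the title number as a fixed replicate block all 3 lost it (-0.62 and 0.243 for Isl1, -0.63 and 0.297 for Pou4f1, -0.82 and 0.207 for Lhx9). The labels do not explain these numbers, and whether they group the samples is not known. Normexp moved the median of all genes by -0.12, and relative to it the differences were -0.62 for Isl1, -0.67 for Pou4f1 and -0.47 for Lhx9.

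The 305 genes called in Chd7Whi/Whi against wild type became 91 with normexp (9 higher and 82 lower, against 110 and 195), 188 without the filter, 20 with position as a block, 19 with the fixed replicate block, 532 with array weights and 112 to 447 on leaving out 1 array, of which wild-type replicates 1 (112) and 4 (114) and Chd7Whi/Whi replicates 1 (149), 2 (136) and 3 (139) moved it by over 1.5 times. The 2 genes of Chd7Whi/+ against wild type became 1 with normexp, with probes above background on all arrays, with only the genotypes compared and with trend and robust variance, 5 without the filter and with slide as a block, 0 with the fixed replicate block and 0 to 3 on leaving out 1 array. The 3 genes of Chd7Whi/Whi against Chd7Whi/+ became 0 with normexp, position, the fixed replicate block and only the genotypes compared, 1 with quantile normalization, 7 with array weights and 1 to 6 on leaving out 1 array. Among list genes, the calls ended (limma adjusted p in brackets) for Lmo1 without any Chd7Whi/Whi or wild-type array (0.0595 to 0.0977), for Foxd3 without Chd7Whi/Whi replicates 1 and 3 or wild-type replicates 1, 2 and 4 (0.0578 to 0.0673), for Neurog2 without any array but Chd7Whi/Whi 4, Chd7Whi/+ 4 and wild-type 2 (0.0558 to 0.161), for Neurod4 without Chd7Whi/Whi 1 to 3, Chd7Whi/+ 3 or any wild-type array (0.0593 to 0.157) and for Ntrk3 without any array but Chd7Whi/+ 2 and 4 and wild-type 2 (0.0628 to 0.152). Position and the fixed replicate block ended the calls of these 5 and of Olig3 and Fgf10. Normexp ended those of Lmo1 (0.0918), Ntrk3 (0.0673), Foxd3 (0.0996) and Neurod4 (0.332), and leaving dim probes unfiltered ended those of Lmo1 (0.0703), Neurog2 (0.0976), Neurod4 (0.0928) and Ntrk3 (0.0920). Quantile normalization ended those of Neurog2 (0.0522) and Neurod4 (0.0618), slide as a block that of Neurod4 (0.0611), and trend and robust variance that of Ntrk3 (0.0567). That of Neurog2 also ended with the random title block (0.0542), only the genotypes compared (0.0798) and every probe on its own (0.0523).

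Of the member values, 33 changed sign, none of them a called difference. In Chd7Whi/Whi minus wild type, Lhx1 became -0.035 with normexp and lay between -0.018 and 0.30 on leaving out 1 array, and Lhx3 became 0.60 with position and lay between -0.35 and 0.15. In Chd7Whi/+ minus wild type, position gave 0.14 for Isl1, 0.75 for Lhx3 and 0.052 for Phox2a. In Chd7Whi/Whi minus Chd7Whi/+, Lhx3 became -0.15 with position, Phox2a became 0.17 with the fixed replicate block and 0.10 with array weights, and leaving out 1 array gave -0.32 to 0.057 for Phox2a and -0.17 to 0.0061 for Isl2. Against the midpoint, Isl1 became -0.015 with median scaling, -0.021 with slide and -0.028 with the fixed replicate block, and position gave 0.14 for Isl2, 0.45 for Lhx3 and 0.081 for Phox2a. There, leaving out 1 array gave -0.036 to 0.14 for Isl1, -0.12 to 0.0091 for Isl2, -0.14 to 0.017 for Pou4f1, -0.12 to 0.053 for Lhx9 and -0.25 to 0.13 for Phox2a. The cause of these changes was not tested.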

Other observations

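After each genotype's mean was subtracted, 17 of the 21 pairs of members had a Pearson correlation above 0 over the 12 arrays, with a median of 0.30, against 50.5% of all pairs among 22220 genes. Isl1 and Lhx3, which act in one complex in motor neurons, had the highest (0.75), and Isl2 and Phox2a the lowest (-0.28). The pairs share genes and arrays, so they are a description and nothing particular to the members is drawn from them.

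In Chd7Whi/+ embryos, no hypoxia and glycolysis gene and no yolk sac and blood gene was called against wild type in limma. The mean log2 difference of the hypoxia and glycolysis list from wild type ranged from -0.04 to 1.09 over the 4 Chd7Whi/+ arrays and averaged 0.33. It rested on Chd7Whi/+ replicate 4, without which it was 0.075. That array was also the lowest Chd7Whi/+ array for Isl1, Isl2, Lhx3 and Lhx1. Pou4f1, Lhx9 and Phox2a were instead lowest on Chd7Whi/+ replicate 3, where the mean of the hypoxia and glycolysis list was 0.11. A link between the list and the members was not tested. The yolk sac and blood list ranged from 0.37 to 0.79, with a mean of 0.58 over the 4 arrays and 0.53 without replicate 4.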
